A study of Mus musculus with 27 samples.

Results

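Messenger RNA of the cecum, the blind pouch at the start of the large intestine, was compared between mice on arsenic feed and mice on control feed. The comparison took 9 of the 27 libraries of the series, all those labelled cecum, and tested 15590 of the 52550 genes in the count table, those with enough reads. The mice were male C57BL/6 animals, 6 weeks old at the start, acclimatized for 7 days and then fed for 60 days. The 4 control libraries (numbered 1, 2, 4 and 5) came from mice on standard feed, and the 5 arsenic libraries (11 to 15) from mice whose standard feed held 30 ug/g of arsenic, as sodium arsenite (72.7%), DMA (19.0%), sodium arsenate (7.3%) and MMA (1.0%). DMA and MMA are methylated forms of arsenic. Each diet had 10 mice, and the labels do not tie a library to a mouse, so p-values measure the spread between libraries. The tissue was the bulk organ, in which fewer cells of a type and less RNA per cell cannot be told apart.

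Trivalent arsenic binds thiol groups of proteins, and cells meet it with metallothioneins, glutathione, chaperones and export pumps. The cecum ferments food residues. Its epithelium absorbs sodium, water and short-chain fatty acids, secretes mucus and peroxide at the surface, and lies over lymphoid patches and a muscle wall. Levels below are counts-per-million values (CPM) after TMM scaling, a correction for library composition, and per-library values are listed in the order control 1, 2, 4 and 5, then arsenic 11, 12, 13, 14 and 15. Differences are log2 fold changes, arsenic minus control, ± SE. A gene is said to have risen or fallen when its edgeR quasi-likelihood test passed a Benjamini-Hochberg adjusted p of 0.05 over all genes tested.

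The 9 libraries held 16069985 to 18083282 counts. The tissue label was borne out by high sums of epithelial and of large intestine markers in every library, the latter 29800 to 37400 CPM on control feed and 27000 to 30700 CPM on arsenic over 5 markers. Summed small intestine markers (5 genes, of which 2 passed the count filter) stood at 63.7 to 93.1 CPM on control feed and 55.1 to 198 CPM on arsenic. Pancreas markers reached 9.15 CPM in 1 arsenic library and were at most 0.29 CPM on control feed. Of the 9 libraries, arsenic 14 (6.39), arsenic 12 (5.29), control 4 (5.07) and arsenic 13 (4.72) had the highest mean log2 level of 7 small intestine genes, and the other 5 stood at 3.38 to 3.60. Genes with at least 1 count numbered 21832 to 22130 on control feed and 22351 to 23119 on arsenic, which did not overlap, and neither did the TMM factors, at 0.949 to 0.982 and 0.988 to 1.05.

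In this comparison 25.2% of the genes tested passed, 11.3% higher (1768 genes) and 13.9% lower (2165 genes) on arsenic. Lower calls outnumbered higher ones, but among the larger changes the order was the other way round, with 318 genes (2.04%) risen and 105 (0.674%) fallen more than 2-fold. Every arsenic library stood above every control library for 1451 genes (9.31%) and below for 1923 (12.3%). The balance rests on the scaling. With upper-quartile factors 2448 genes were higher and 1627 lower, and with library totals alone 2778 and 1379, the latter shifting the median log2 change of all genes from 0.02 to 0.11. The median of 0.02 is the reference for the list medians below. For the list counts below, the reference is the share of all genes called, 11.3% higher and 13.9% lower. A list count near these shares does not set the list apart.

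**Figure D1:**
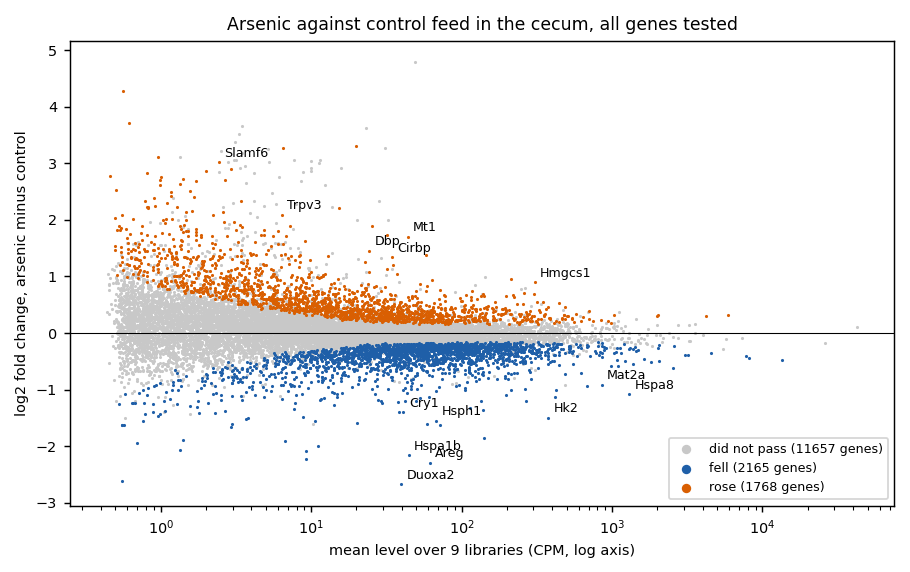
Log2 change, arsenic minus control, of each of the 15590 genes tested in the cecum (vertical axis) against its mean level in CPM on a log axis (horizontal), with genes that passed the edgeR test in colour. The 318 genes risen more than 2-fold gather at low levels, and Hspa8, Hk2 and Mat2a fell from high levels.

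Metal binding and movement came first. Metallothioneins are small cysteine-rich proteins that bind zinc, cadmium and other metals, and their genes are switched on through metal response elements by the zinc-sensing factor MTF1. Mt1 (ENSMUSG00000031765) stood at 20.2, 20.2, 19.7 and 17.4 CPM on control feed and 54.4, 53.5, 73.2, 73.2 and 61.8 CPM on arsenic. Every arsenic library was more than double any control library, in a group that varied little. The change was 1.71 ± 0.11, edgeR adjusted p = 8.41e-07, the smallest p-value among the genes that rose. Mt2 had 0 counts in all 27 libraries, so no statement about it is possible. Mt4, a metallothionein best known from squamous epithelium, stood at 0.0572, 0.174, 0.0633 and 0.230 CPM on control feed and 0.718, 0.693, 0.891, 0.813 and 0.876 CPM on arsenic, and although it rose (2.53 ± 0.42, edgeR adjusted p = 0.000748), it stayed under 1 CPM everywhere. Mt4 passed the count filter only through the arsenic libraries, so its call is no independent support for a rise.

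The 250 bases before the RefSeq start of Mt1 are shown because they hold a match to the element that MTF1 binds (chr8:94178839-94179088, GRCm38.p6, plus strand). Binding there was not measured. Capitals mark a match to the metal response element (TGCACNC or TGCGCNC, on either strand).
Mt1: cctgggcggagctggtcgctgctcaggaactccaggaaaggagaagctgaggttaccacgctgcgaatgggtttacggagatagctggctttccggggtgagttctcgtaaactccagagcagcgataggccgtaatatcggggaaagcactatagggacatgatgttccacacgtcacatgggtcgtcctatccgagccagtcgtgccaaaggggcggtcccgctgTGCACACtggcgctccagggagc
A match occurred in 21.4% of 32851 promoter windows of this length, in 29.0% of the 14387 windows of genes tested and in 8 of 14 windows of the metallothionein and zinc transporter list (57.1%).

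The zinc side of the list moved the other way. Of 13 members tested 2 rose, Mt1 and the barely expressed Mt4, and 7 fell, with a median of -0.21 over all 13. With upper-quartile scaling 4 fell and with library totals 3, and without control 1, 2 or 5 the number was 4, 3 and 4. Slc39a4, the zinc importer of the apical gut surface, stood at 899, 849, 977 and 971 CPM on control feed and 477, 491, 406, 419 and 624 CPM on arsenic. The highest arsenic library lay far under the lowest control, and the change was -0.93 ± 0.11, edgeR adjusted p = 0.000167. Mtf1 itself fell (-0.64 ± 0.12, edgeR adjusted p = 0.00203), with 30.98 to 45.6 CPM on control feed and 21.4 to 27.6 CPM on arsenic, and so did the importer Slc39a10 (-0.49 ± 0.11, edgeR adjusted p = 0.0044). The exporter Slc30a1, known as a target of MTF1, overlapped between diets at 137 to 186 CPM on control feed and 87.9 to 146 CPM on arsenic and its call was not stable (-0.48 ± 0.14, edgeR adjusted p = 0.0356, but edgeR adjusted p = 0.0573 to 0.0876 without each of control 1, control 2, control 5, arsenic 13 and arsenic 15).

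Genes that methylate, reduce or move arsenic differed little. Of 17 tested, 1 rose and 3 fell, a share called (23.5%) close to that of all genes, with a median of -0.04, and with upper-quartile scaling 1 fell and the median was 0.02. Without control 1, 4 or 5 or arsenic 12, 13 or 14 also 1 fell. As3mt, the arsenic methyltransferase, stood at 29.5, 28.8, 31.6 and 35.6 CPM on control feed and 29.3, 31.9, 30.1, 33.5 and 35.5 CPM on arsenic. Its groups overlapped fully (0.03 ± 0.08, edgeR adjusted p = 0.821). Gsto1, which reduces arsenic species, differed by -0.08 ± 0.05, edgeR adjusted p = 0.275. The efflux pump genes Abcc1 (-0.18 ± 0.08, edgeR adjusted p = 0.105) and Abcc2 (0.67 ± 0.43, edgeR adjusted p = 0.286) did not pass, and Abcc2 was highest in arsenic 14, at 7.96 CPM, and in control 4, at 4.24 CPM. Aqp3, a glycerol channel that can pass arsenite, had too few counts to be tested. The member that rose was Slc20a2, a sodium-phosphate carrier, at 17.1, 16.6, 16.3 and 15.6 CPM on control feed and 28.8, 29.98, 25.02, 26.4 and 25.6 CPM on arsenic. The diets were separated by a wide gap, and the change was 0.73 ± 0.08, edgeR adjusted p = 3.71e-05.

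NRF2 is the factor that turns on glutathione and thioredoxin genes when thiols are oxidized or bound. Of its 33 targets tested 2 rose and 9 fell (33.3% called, against 25.2% of all genes), with a median of -0.08 that was 0.01 with library totals. Hmox1, Nqo1, Gclc and Slc7a11, the targets most often used as markers, did not pass. Hmox1, heme oxygenase, stood at 8.35, 7.95, 10.6 and 9.03 CPM on control feed and 7.36, 8.20, 7.01, 8.45 and 7.19 CPM on arsenic, and arsenic libraries lay within or below the control range (-0.23 ± 0.12, edgeR adjusted p = 0.179). Nqo1, a quinone reductase, differed by 0.09 ± 0.08, edgeR adjusted p = 0.392, Gclc, of glutathione synthesis, by -0.11 ± 0.09, edgeR adjusted p = 0.406, and Slc7a11, the cystine importer, by 0.60 ± 0.29, edgeR adjusted p = 0.143. Slc7a11 was highest in arsenic 11 and 13 and lowest in arsenic 15. Txnrd1, the cytosolic thioredoxin reductase, a selenoprotein, stood at 362, 377, 340.4 and 370.3 CPM on control feed and 219, 248, 212, 228 and 215 CPM on arsenic. All 5 arsenic libraries lay in a narrow band under every control (-0.69 ± 0.06, edgeR adjusted p = 5.22e-06). Srxn1, which repairs peroxiredoxins (-0.32 ± 0.06, edgeR adjusted p = 0.00121), G6pdx, the entry to the pentose phosphate path that makes NADPH (-0.45 ± 0.08, edgeR adjusted p = 0.00124), and Gstp1, a glutathione transferase (-0.41 ± 0.08, edgeR adjusted p = 0.0014), fell by less. Ephx1, an epoxide hydrolase, rose (0.46 ± 0.10, edgeR adjusted p = 0.00367). Among 18 selenoprotein genes 4 fell, Txnrd1 among them, and 2 rose, led by the thioredoxin-glutathione reductase gene Txnrd3 (0.78 ± 0.14, edgeR adjusted p = 0.00108).

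Heat shock genes encode chaperones that refold proteins, with HSF1 as the factor that activates them through heat shock elements. Of 30 tested, 21 fell and 1 rose, with a median of -0.39, and in 19 of them every arsenic library lay below every control. The share called was 73.3%, against 25.2% of all genes, and 12.3% of all genes lay below every control in this way. Hspa1b and Hsph1 are shown for matches to the heat shock element before their start sites. Capitals mark a match to GAANNTTC or TTCNNGAA, the core pair of inverted heat shock units, on chr17:34959239-34959488 and chr5:149636337-149636586 (GRCm38.p6, both on the minus strand, RefSeq).
Hspa1b: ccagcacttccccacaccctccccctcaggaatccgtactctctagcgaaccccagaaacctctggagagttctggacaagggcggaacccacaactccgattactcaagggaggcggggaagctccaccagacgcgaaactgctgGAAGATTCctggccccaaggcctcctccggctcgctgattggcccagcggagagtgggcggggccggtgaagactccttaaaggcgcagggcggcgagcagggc
Hsph1: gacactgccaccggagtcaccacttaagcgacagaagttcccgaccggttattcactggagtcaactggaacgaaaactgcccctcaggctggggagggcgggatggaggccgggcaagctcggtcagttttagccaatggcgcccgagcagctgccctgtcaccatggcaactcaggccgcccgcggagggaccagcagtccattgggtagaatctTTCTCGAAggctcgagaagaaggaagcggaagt
Such a match stood in 12 of 31 windows of the list (38.7%), in 10.2% of windows of genes tested and in 12.8% of all windows.

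Among the HSP70 family, Hspa8, the constitutive form and the most abundant member, stood at 2072, 1685, 1834 and 1781 CPM on control feed and 823, 746, 873, 953 and 957 CPM on arsenic. The arsenic libraries held about the same level as each other, far below the lowest control, and the change was -1.08 ± 0.08, edgeR adjusted p = 1.84e-06. Hspa1b, an inducible form, stood at 129, 80.2, 54.7 and 48.4 CPM on control feed and 16.5, 22.4, 18.2, 17.8 and 12.7 CPM on arsenic. Control libraries were spread widely and control 1 was highest, yet the lowest control was more than double the highest arsenic library (-2.16 ± 0.32, edgeR adjusted p = 0.00304). Its near-identical neighbour Hspa1a changed by -2.22 ± 0.25, edgeR adjusted p = 0.000213, and reads may be split between the pair. Hsph1, the HSP110 exchange factor for HSP70, stood at 128, 91.2, 109 and 100.4 CPM on control feed and 48.04, 35.6, 33.04, 33.3 and 33.5 CPM on arsenic, again with control 1 highest and no overlap (-1.55 ± 0.13, edgeR adjusted p = 2.95e-05). Hspa4, Hspa4l and Hspa13, of the same family, also fell.

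HSP40 proteins pass clients to HSP70. Dnaja1 stood at 246, 227, 205 and 218 CPM on control feed and 134, 125, 126, 129 and 127 CPM on arsenic, with arsenic libraries almost alike (-0.80 ± 0.06, edgeR adjusted p = 1.62e-06), and Dnajb1 fell too (-0.57 ± 0.09, edgeR adjusted p = 0.000525). HSP90 and its helpers fell as well. Chordc1, an HSP90 co-chaperone, stood at 72.3, 61.4, 74.4 and 71.5 CPM on control feed and 36.6, 34.9, 37.1, 34.4 and 33.1 CPM on arsenic, close to a halving in every arsenic library (-0.99 ± 0.07, edgeR adjusted p = 1.29e-06). Stip1, which bridges HSP70 and HSP90, changed by -0.71 ± 0.07, edgeR adjusted p = 2.59e-05, Bag3 by -0.53 ± 0.07, edgeR adjusted p = 0.000112, and the HSP90 genes Hsp90aa1 and Hsp90ab1 by -0.37 ± 0.08 and -0.39 ± 0.08 (edgeR adjusted p = 0.00425 and 0.00308). Hsf1 stood at 19.8 to 24.9 CPM on control feed and 15.6 to 19.8 CPM on arsenic (-0.33 ± 0.09, edgeR adjusted p = 0.0181, but edgeR adjusted p = 0.0658 without control 1), and its fall did not pass with library totals. The mitochondrial chaperone Hspd1 did not pass (-0.16 ± 0.07, edgeR adjusted p = 0.109). The member that rose, Hspb1, overlapped between diets, and its call was lost in runs that left out 1 library (edgeR adjusted p = 0.0425, edgeR adjusted p = 0.0719 to 0.113 without each of control 1, control 4, control 5, arsenic 12, arsenic 13 and arsenic 14).

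Chaperones of the endoplasmic reticulum, which fold secreted proteins, were lower as well. Of 28 tested 15 fell and 0 rose, with a median of -0.21, while with library totals 2 rose. Hspa5, the main chaperone there, stood at 544, 458, 439 and 538 CPM on control feed and 405, 349, 342, 334 and 320.4 CPM on arsenic, with every arsenic library under the lowest control (-0.50 ± 0.08, edgeR adjusted p = 0.000647). Sdf2l1, its partner, changed by -0.70 ± 0.08, edgeR adjusted p = 4.65e-05, Hyou1 by -0.70 ± 0.10, edgeR adjusted p = 0.000531 and Syvn1, a ubiquitin ligase that clears misfolded proteins, by -0.53 ± 0.07, edgeR adjusted p = 0.000103. Xbp1, a factor of the unfolded protein response that is also a secretory cell gene, fell by less (-0.30 ± 0.06, edgeR adjusted p = 0.00271). ATF4 is the factor of the integrated stress response. Of 25 targets 1 rose and 6 fell, a share called (28%) near the 25.2% of all genes, while with library totals 3 rose. Atf4 itself stood at 136 to 146 CPM on control feed and 146 to 162 CPM on arsenic (0.10 ± 0.05, edgeR adjusted p = 0.193), and Ppp1r15a, the phosphatase subunit that ends the response, fell (-0.73 ± 0.12, edgeR adjusted p = 0.000841).

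**Figure D2:**
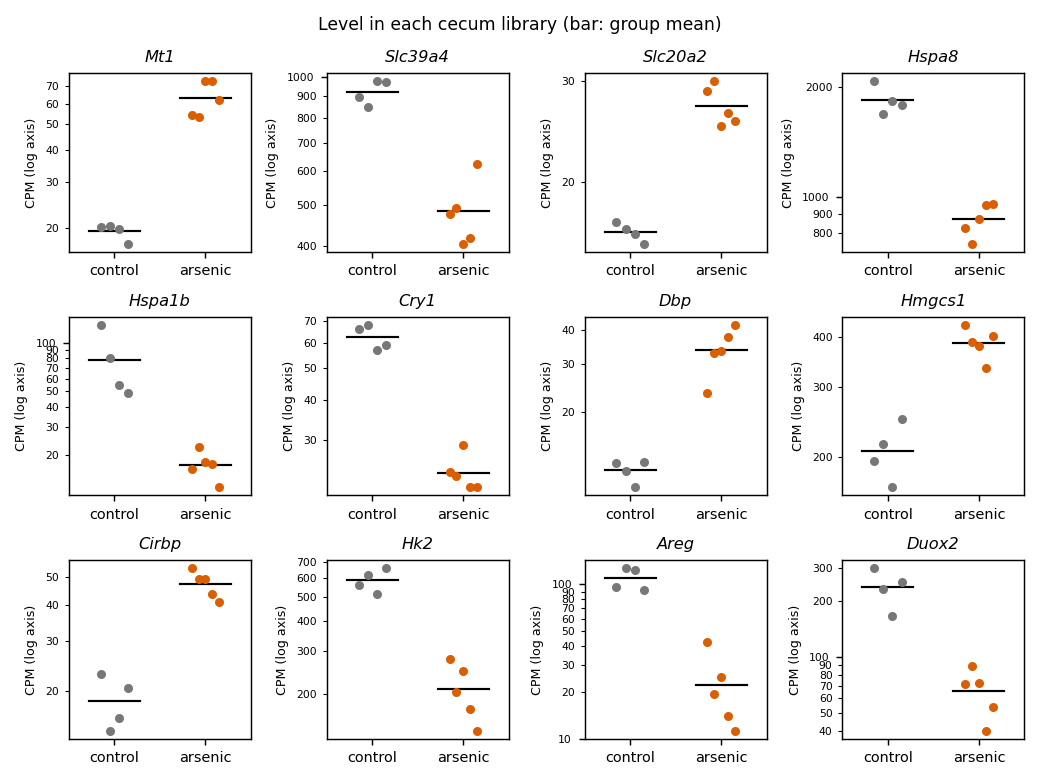
Level in each cecum library, in CPM on log axes that differ between panels, of 12 genes named in the text, with control libraries in grey, arsenic libraries in orange and a bar at the mean of each group. Mt1, Slc20a2, Dbp, Hmgcs1 and Cirbp are higher and Slc39a4, Hspa8, Hspa1b, Cry1, Hk2, Areg and Duox2 lower in every arsenic library than in any control.

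The circadian clock is a loop in which ARNTL with CLOCK or NPAS2 activates E-box genes, among them its own repressors, so that the 2 arms peak at opposite times of day. Both arms differed, in opposite directions. Of 7 genes of the activator phase 5 fell and 0 rose (median -0.56), and of 13 repressor and output genes 8 rose and 0 fell (median 0.60). Arntl stood at 47.5, 43.7, 29.01 and 28.5 CPM on control feed and 20.2, 20.2, 15.4, 13.9 and 18.9 CPM on arsenic. Controls 1 and 2 were above controls 4 and 5, and all arsenic libraries lay lower still (-1.07 ± 0.19, edgeR adjusted p = 0.00299). Cry1, a repressor that peaks with the activators, stood at 66.4, 68.3, 56.9 and 58.97 CPM on control feed and 23.8, 23.2, 28.9, 21.4 and 21.4 CPM on arsenic, far below the lowest control in every arsenic library (-1.40 ± 0.09, edgeR adjusted p = 8.41e-07). Npas2 changed by -0.56 ± 0.10, edgeR adjusted p = 0.000935 and Nfil3, which represses D-box genes, by -1.18 ± 0.20, edgeR adjusted p = 0.00094.

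On the other arm, Dbp, an output factor that binds D-boxes, stood at 13.1, 12.2, 10.7 and 13.2 CPM on control feed and 23.6, 32.8, 33.3, 37.4 and 41.6 CPM on arsenic. Arsenic 11 was the lowest of its group and still well above every control (1.45 ± 0.14, edgeR adjusted p = 4.52e-05). Ciart, a repressor of the loop, stood at 4.01, 2.84, 3.93 and 6.44 CPM on control feed and 9.33, 12.5, 11.4, 9.97 and 9.51 CPM on arsenic, without overlap (1.29 ± 0.19, edgeR adjusted p = 0.000398). Tef, Hlf and Cry2 changed by 0.75 ± 0.16, 0.61 ± 0.15 and 0.60 ± 0.10 (edgeR adjusted p = 0.0103, 0.00986 and 0.000645), and Nr1d1, which represses Arntl, by 0.58 ± 0.11, edgeR adjusted p = 0.0034. Per1 (0.16 ± 0.12, edgeR adjusted p = 0.329) and Per2 (-0.05 ± 0.16, edgeR adjusted p = 0.868) did not pass, and Per3 was 14.3 to 26.8 CPM on control feed and 24.4 to 42.8 CPM on arsenic (edgeR adjusted p = 0.0588). The promoter of Ciart is shown because it holds 3 E-boxes (CACGTG, in capitals; chr3:95882229-95882478, GRCm38.p6, minus strand, RefSeq).
Ciart: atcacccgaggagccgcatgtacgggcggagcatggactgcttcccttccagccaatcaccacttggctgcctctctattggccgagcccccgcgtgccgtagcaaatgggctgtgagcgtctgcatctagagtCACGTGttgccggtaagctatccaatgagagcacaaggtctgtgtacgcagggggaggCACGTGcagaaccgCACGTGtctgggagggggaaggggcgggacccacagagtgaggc
E-boxes stood in 5 of 13 windows of the repressor and output list (38.5%), in 7.9% of windows of genes tested and in 6.02% of all windows.

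Mean log2 levels of the 2 clock lists did not overlap between diets, at 4.36 to 4.64 on control feed and 3.93 to 4.04 on arsenic for the activator phase, and 4.43 to 4.76 and 5.04 to 5.27 for repressors and output. The labels give no hour of tissue collection, and hour and diet cannot be told apart. When the difference of these scores was added to the model as a covariate, 0 genes passed the edgeR test, and 1310 had an unadjusted p below 0.05. Of the 3933 genes called without it, 495 then had the opposite sign. This covariate was made from clock genes and did not overlap between diets. It shared most of its variation with diet, so the fit cannot tell clock and diet apart.

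**Figure D3:**
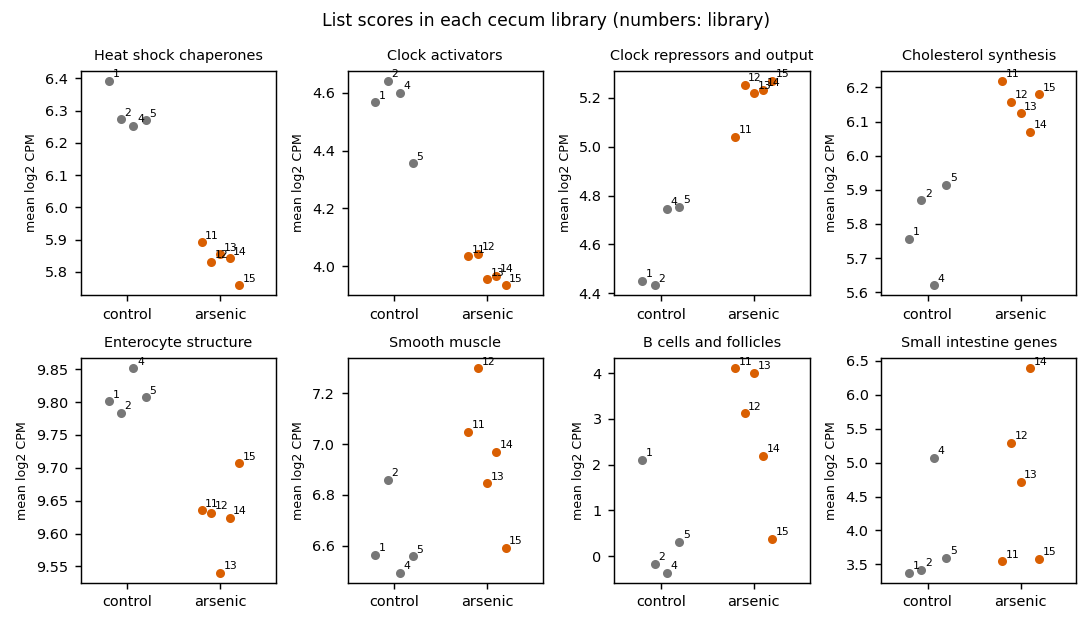
Mean log2 CPM of the members of 8 gene lists in each cecum library (vertical axis, log2 CPM), by diet. The heat shock, both clock and the cholesterol synthesis lists separate the diets in every library, B cell and small intestine scores overlap, and arsenic 11 and 13 are highest for B cells while arsenic 14 is highest for small intestine genes.

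Growth factor signals of the epithelium pass from EGF receptor ligands through ERK kinases, which in turn induce their own inhibitors. Of 21 genes tested 10 fell and 1 rose, with a median of -0.40. Among ligands, Areg, amphiregulin, stood at 96.2, 127, 124 and 91.7 CPM on control feed and 42.2, 19.5, 25.2, 13.97 and 11.3 CPM on arsenic. Arsenic libraries ranged from 11.3 to 42.2 CPM with 11 the highest, all far below the lowest control (-2.29 ± 0.38, edgeR adjusted p = 0.00478). Ereg, epiregulin, changed by -1.56 ± 0.21, edgeR adjusted p = 0.000351, while Tgfa (0.02 ± 0.08, edgeR adjusted p = 0.873) and Hbegf (-0.38 ± 0.31, edgeR adjusted p = 0.412) did not pass. Among receptors, Egfr did not pass (-0.18 ± 0.07, edgeR adjusted p = 0.0883) and Erbb3 rose (0.46 ± 0.10, edgeR adjusted p = 0.00603). Among feedback inhibitors, Dusp6, a phosphatase of ERK, stood at 50.98, 75.5, 56.6 and 50.97 CPM on control feed and 29.4, 20.3, 24.4, 18.9 and 17.9 CPM on arsenic, without overlap (-1.40 ± 0.17, edgeR adjusted p = 0.00042). Dusp5 and Spry4 changed by -0.84 ± 0.13 and -1.07 ± 0.18 (edgeR adjusted p = 0.000371 and 0.000792).

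Immediate early genes, induced within minutes of a stimulus or of handling, were lower too. Of 24, 10 fell and 2 rose, with a median of -0.36. Atf3, a stress-induced factor, stood at 81.02, 90.99, 110.3 and 94.98 CPM on control feed and 45.2, 28.99, 29.2, 29.3 and 22.1 CPM on arsenic, with every arsenic library under the lowest control (-1.61 ± 0.18, edgeR adjusted p = 0.000523). Jun changed by -0.71 ± 0.09, edgeR adjusted p = 0.00014, Klf4 by -0.43 ± 0.06, edgeR adjusted p = 0.000198 and Dusp1, also a glucocorticoid target, by -1.20 ± 0.11, edgeR adjusted p = 1.89e-05. Egr1 overlapped between diets and missed the threshold (-0.56 ± 0.29, edgeR adjusted p = 0.197). The 2 that rose, Egr3 and Dusp2, stood at no more than 3.53 CPM and were highest in arsenic 11 and 13, and single libraries ended both calls. Egr3 had edgeR adjusted p = 0.0666 to 0.0916 without each of control 2, control 4, control 5, arsenic 11, arsenic 12 and arsenic 13, and Dusp2 had edgeR adjusted p = 0.064 to 0.101 without each of control 2, control 4, control 5, arsenic 11, arsenic 12 and arsenic 13. Among 17 glucocorticoid response genes 4 fell and 1 rose, a share called (29.4%) near the 25.2% of all genes. Sgk1, a kinase that raises sodium uptake, stood at 569.8, 584, 697 and 539 CPM on control feed and 319.9, 214, 219.6, 219 and 400.5 CPM on arsenic, clearly apart from the controls (-1.12 ± 0.21, edgeR adjusted p = 0.00702), Zbtb16 fell (-1.52 ± 0.29, edgeR adjusted p = 0.0026), and Nr3c1, the receptor, did not pass (0.10 ± 0.06, edgeR adjusted p = 0.253).

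Targets of p53 split. Of 25, 5 rose and 6 fell, the former 2 without control 1 and 3 without control 5 or without arsenic 14. Cdkn1a, the most used of them, stood at 455 to 566 CPM on control feed and 471 to 629.6 CPM on arsenic (0.01 ± 0.09, edgeR adjusted p = 0.925). Pmaip1, which promotes cell death, stood at 45.4, 45.8, 31.2 and 40.1 CPM on control feed and 14.7, 16.2, 18.6, 18.9 and 20.8 CPM on arsenic, less than the lowest control in every arsenic library (-1.19 ± 0.12, edgeR adjusted p = 4.42e-05). Plk2 rose (0.80 ± 0.16, edgeR adjusted p = 0.00284), and Plk3, a related kinase, fell from 95.6 to 158 CPM in controls to 27.1 to 57.6 CPM in arsenic libraries (-1.62 ± 0.25, edgeR adjusted p = 0.00327).

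Cholesterol is made by the mevalonate and squalene pathway, whose genes are activated by SREBF2 when sterols in the membrane of the endoplasmic reticulum run low. Of 21 pathway genes 14 rose and 4 fell, with a median of 0.41. The promoter of Hmgcs1, HMG-CoA synthase, is shown for a match to the sterol response element (capitals mark TCACCCCAC, and TCACACCAC was also searched, on both strands, in chr13:119690101-119690350, GRCm38.p6, plus strand, RefSeq). Unlike those of the other windows shown, the bases after this start were not found near the start of an annotated transcript of the gene.
Hmgcs1: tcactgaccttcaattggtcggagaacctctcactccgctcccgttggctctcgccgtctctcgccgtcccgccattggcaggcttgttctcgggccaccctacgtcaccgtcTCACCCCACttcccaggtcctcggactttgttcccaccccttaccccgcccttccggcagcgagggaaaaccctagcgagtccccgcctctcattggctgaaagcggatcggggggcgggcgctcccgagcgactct
Such an element was present in 0.7% of all windows, in 0.626% of windows of genes tested and in 1 of 19 windows of the list.

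Hmgcs1 stood at 196, 215, 168 and 249 CPM on control feed and 428, 388, 378, 334 and 402 CPM on arsenic. The lowest arsenic library was above the highest control, in which control 5 led (0.90 ± 0.10, edgeR adjusted p = 0.000112). Lss, which closes the sterol ring, changed by 0.86 ± 0.10, edgeR adjusted p = 5.4e-05, Fdft1 by 0.66 ± 0.12, edgeR adjusted p = 0.00219, Idi1 by 0.63 ± 0.10, edgeR adjusted p = 0.000573 and Hsd17b7 by 0.65 ± 0.08, edgeR adjusted p = 8.03e-05. The largest change was that of Fdps, at 2.06, 2.38, 1.58 and 2.01 CPM on control feed and 7.96, 8.55, 5.88, 6.23 and 4.94 CPM on arsenic, a gene with processed copies that can share its reads (1.73 ± 0.20, edgeR adjusted p = 5.14e-05). Dhcr7, the last step, and Ggps1, which leads to prenyl groups, fell (-0.32 ± 0.06, edgeR adjusted p = 0.00138 and -0.34 ± 0.07, edgeR adjusted p = 0.00284). Among 21 genes that sense, take up or store sterols 10 rose and 3 fell. The sterol carrier Stard4 (0.65 ± 0.07, edgeR adjusted p = 3.41e-05) and Mylip, a ubiquitin ligase (0.69 ± 0.13, edgeR adjusted p = 0.00146), rose, and so did Abca1, a sterol exporter (0.57 ± 0.12, edgeR adjusted p = 0.00357). Soat1, which stores cholesterol as esters, stood at 59.6, 62.6, 53.5 and 55.6 CPM on control feed and 37.3, 28.5, 28.6, 23.02 and 30.02 CPM on arsenic and fell (-0.97 ± 0.11, edgeR adjusted p = 6.98e-05). Srebf2 did not pass (-0.01 ± 0.07, edgeR adjusted p = 0.938).

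Fatty acid synthesis genes fell or did not pass. Of 20 genes 0 rose and 7 fell, with a median of -0.22. With the B cell list score as a covariate 3 fell and 1 rose. A limma voom fit of all 27 libraries with a replicate block gave 1 fall. Me1, which supplies NADPH, changed by -0.65 ± 0.13, edgeR adjusted p = 0.00335 and Pnpla3, a lipid droplet enzyme, by -1.65 ± 0.31, edgeR adjusted p = 0.00219, at 6.24, 5.39, 4.24 and 3.11 CPM on control feed and 1.02, 0.982, 0.951, 1.95 and 2.63 CPM on arsenic. Arsenic 14 and 15 were the highest of their group for Pnpla3. Elovl7 and Acaca, the first enzyme of the pathway, changed by -0.41 ± 0.09 and -0.37 ± 0.09 (edgeR adjusted p = 0.00305 and 0.00872), the latter not called without arsenic 11 and 13 together. Scd1 stood at 175, 293, 229 and 156 CPM on control feed and 95.8, 87.96, 72.4, 186 and 185 CPM on arsenic, and arsenic 14 and 15 lay within the control range (-0.77 ± 0.36, edgeR adjusted p = 0.166). Arsenic 14 and 15 were also the highest of their group for the mean log2 level of adipocyte and mesothelium genes. That score was 3.30 to 3.99 on control feed and 2.41, 2.92, 2.21, 3.62 and 4.17 on arsenic. The part of fat tissue in the falls of this list was not tested. Of 30 fatty acid oxidation genes 2 rose and 3 fell, with a median of 0.00, and with library totals 7 rose.

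**Figure D4:**
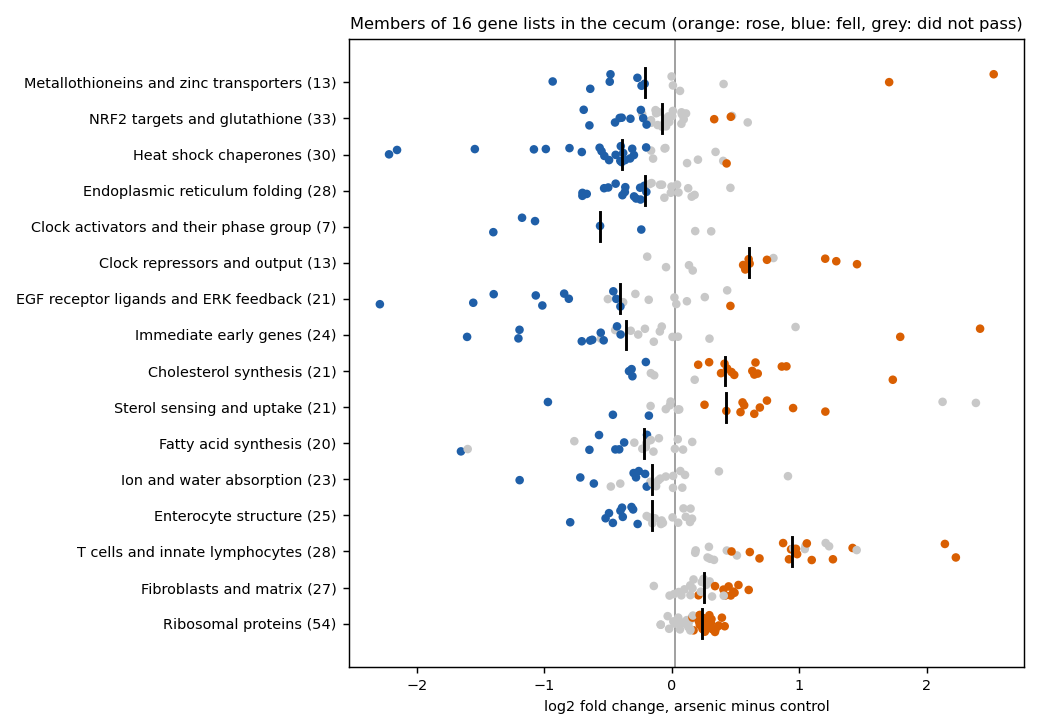
Log2 change, arsenic minus control, of each tested member of 16 gene lists (points), with members that passed the edgeR test in colour, the list median as a black bar and the median of all genes tested (0.02) as a grey line. Heat shock and EGF receptor genes lie mainly below the line and cholesterol synthesis, clock repressor and ribosomal protein genes mainly above it.

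Absorption of sodium and water is the main task of large intestinal epithelium. Of 23 genes 8 fell and 0 rose, with a median of -0.15, and with library totals 5 fell. Slc9a3, the apical sodium-proton exchanger, stood at 395, 449.5, 296 and 427 CPM on control feed and 184, 167, 197, 152 and 157 CPM on arsenic. Control 4 was the lowest control and still well above all arsenic libraries (-1.19 ± 0.12, edgeR adjusted p = 8.44e-05). Aqp8, a water channel of the large intestine, stood at 2916, 3060.5, 2992 and 3573 CPM on control feed and 2265, 1691, 2126, 1926 and 2249.8 CPM on arsenic, without overlap (-0.61 ± 0.09, edgeR adjusted p = 0.00031), and Car4, a surface carbonic anhydrase, changed by -0.72 ± 0.10, edgeR adjusted p = 0.000439. Of 15 genes of chloride secretion and guanylin 4 fell and 0 rose, a share called (26.7%) near the 25.2% of all genes. Upper-quartile scaling and library totals each gave 5 risen, and 3 rose without arsenic 15. Cftr, the chloride channel, changed by -0.43 ± 0.10, edgeR adjusted p = 0.00981, its potassium channel partner Kcne3 by -0.57 ± 0.09, edgeR adjusted p = 0.000645 and Vipr1, the receptor for the secretagogue VIP, by -0.44 ± 0.06, edgeR adjusted p = 0.000174.

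Duox2 and its maturation factor Duoxa2 form the enzyme that makes hydrogen peroxide at the epithelial surface. Duox2 stood at 297, 230.5, 166 and 250.1 CPM on control feed and 71.4, 89.1, 72.1, 40.2 and 53.9 CPM on arsenic and Duoxa2 at 94.6, 77.5, 43.1 and 83.4 CPM on control feed and 14.96, 17.96, 12.1, 3.47 and 10.1 CPM on arsenic. Arsenic 14 held the least of both, and no arsenic library reached the lowest control, which was control 4 (-1.85 ± 0.26, edgeR adjusted p = 0.00215 and -2.67 ± 0.43, edgeR adjusted p = 0.00433). Of the list of 11 enzymes and partners 3 fell and 1 rose. The third fall was that of Noxa1, an activator of the oxidase Nox1 (-0.33 ± 0.11, edgeR adjusted p = 0.0407, but edgeR adjusted p = 0.0586 to 0.121 without each of control 1, control 2, control 5, arsenic 12, arsenic 14 and arsenic 15), while Nox1 itself (-0.49 ± 0.26, edgeR adjusted p = 0.209) and Nos2, a nitric oxide synthase (-0.63 ± 0.58, edgeR adjusted p = 0.476), did not pass. Cybb, the phagocyte oxidase, rose from at most 4.81 CPM in controls to 16.2 and 16.5 CPM in arsenic 11 and 13 and 5.15 to 7.22 CPM in the others, a call that was lost in single-library runs (edgeR adjusted p = 0.0466, edgeR adjusted p = 0.0549 to 0.115 without each of control 1, control 2, control 4, control 5, arsenic 11, arsenic 12 and arsenic 13).

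Of 15 Reg lectin and antimicrobial genes 2 rose and 5 fell, with a median of 0.13, and single libraries moved the falls to 2 without control 2, arsenic 12 or arsenic 14 and 3 without control 5. With upper-quartile scaling or library totals 2 fell. Reg3b, a secreted lectin that kills bacteria, stood at 1.14, 1.80, 9.57 and 0.345 CPM on control feed and 2.75, 43.5, 63.2, 321 and 0.0625 CPM on arsenic. Arsenic 14, 13 and 12 and control 4 were the highest, the libraries in which the small intestine score was highest too, while arsenic 15 held the least of all (4.79 ± 1.90, edgeR adjusted p = 0.109). Reg3g had the same order at the top (3.63 ± 1.43, edgeR adjusted p = 0.109). The part of the position markers in these values was not tested. Sprr1a, a cornified envelope protein, fell (-1.32 ± 0.11, edgeR adjusted p = 2.64e-05), as did Lypd8, which holds bacteria off the surface, at 13116 to 17705 CPM on control feed and 10035 to 12882 CPM on arsenic (-0.48 ± 0.10, edgeR adjusted p = 0.00304). Of 21 acute phase and chemokine genes 4 rose and 3 fell, and 1 fell without control 1 or control 2. Cxcl9 and Cxcl10, chemokines that draw T cells, changed by 1.71 ± 0.29, edgeR adjusted p = 0.000814 and 1.76 ± 0.33, edgeR adjusted p = 0.00168, at levels of no more than 3.15 CPM, and Saa1, an acute phase protein, by -0.45 ± 0.08, edgeR adjusted p = 0.00115. Of 40 interferon response genes 7 fell and 1 rose, a share called (20%) below the 25.2% of all genes, with a median of -0.29. Mx1 stood at 16.9, 16.8, 14.4 and 15.4 CPM on control feed and 7.36, 7.45, 9.57, 8.34 and 12.2 CPM on arsenic, with arsenic 15 nearest to the controls (-0.82 ± 0.14, edgeR adjusted p = 0.00078), and Irf7, the factor that amplifies the response, changed by -0.71 ± 0.12, edgeR adjusted p = 0.00127. Without control 4, 20 of the list fell. Ripk3, a kinase of necroptosis, stood at 58.5, 61.4, 55.6 and 69.4 CPM on control feed and 31.4, 31.7, 28.8, 28.8 and 26.8 CPM on arsenic, a drop that was almost the same in each arsenic library (-1.05 ± 0.08, edgeR adjusted p = 1.62e-06).

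Genes of enterocyte structure and identity were modestly lower. Of 25, 10 fell and 0 rose, with a median of -0.15, while with library totals 3 rose. Hnf4a, a factor of epithelial identity, stood at 1433, 1405, 1511 and 1457 CPM on control feed and 1161, 1060.4, 975, 909.95 and 1051 CPM on arsenic (-0.49 ± 0.07, edgeR adjusted p = 0.00023), and Ceacam20, a surface protein of the brush border, changed by -0.52 ± 0.06, edgeR adjusted p = 8.03e-05. The list score was 9.78 to 9.85 on control feed and 9.54 to 9.71 on arsenic, without overlap. With that score as a covariate 81 genes passed and 1837 had an unadjusted p below 0.05. Score and diet shared most of their variation, so this fit cannot tell them apart. Of 28 junction genes 8 fell and 2 rose, and with library totals 5 fell and 4 rose. F11r, a junction adhesion molecule, changed by -0.43 ± 0.05, edgeR adjusted p = 8.03e-05, Cdh1, E-cadherin, by -0.35 ± 0.05, edgeR adjusted p = 0.00045 and Pkp3, of desmosomes, by 0.33 ± 0.06, edgeR adjusted p = 0.000719. Of 19 goblet cell genes 7 fell and 2 rose, and with upper-quartile scaling or library totals 4 fell, as they did without arsenic 12 or 13, and 3 without control 2 or arsenic 14. Muc13, a surface mucin, changed by -0.50 ± 0.06, edgeR adjusted p = 7.4e-05 and Muc2, the main secreted mucin, by -0.34 ± 0.08, edgeR adjusted p = 0.00425.

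Few cell renewal genes passed. Of 31 cell cycle genes 1 fell and 0 rose, with a median of 0.03, and Mki67, a proliferation marker, stood at 90.6, 93.5, 84.2 and 112 CPM on control feed and 105, 121, 100.1, 113 and 92.7 CPM on arsenic, overlapping between diets (0.16 ± 0.09, edgeR adjusted p = 0.209). Of 19 stem cell and Wnt target genes 2 fell and 0 rose, and Lgr5, the stem cell receptor, did not pass (0.01 ± 0.16, edgeR adjusted p = 0.96). Of 17 enteroendocrine genes 1 rose and 1 fell, and of 11 tuft cell genes 2 rose. Hpgds, a prostaglandin D synthase of tuft and mast cells, changed by 0.75 ± 0.18, edgeR adjusted p = 0.0082. Of 40 nuclear genes of oxidative phosphorylation 0 passed, with a median of -0.01, against 25.2% of all genes, and upper-quartile scaling and library totals gave 3 and 8 risen.

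The T cell, innate lymphocyte and B cell list genes that passed had risen, and their levels were uneven among arsenic libraries. Among T cells and innate lymphocytes 14 of 28 genes rose and 0 fell (median 0.94), and of 19 B cell and follicle genes 1 rose (median 2.84). Ms4a1, the B cell marker CD20, stood at 5.26, 0.696, 0.507 and 1.44 CPM on control feed and 34.6, 11.3, 28.2, 6.72 and 1.31 CPM on arsenic. Arsenic 11, 13 and 12 were high, arsenic 14 was near control 1, and arsenic 15 lay within the control range (3.03 ± 1.09, edgeR adjusted p = 0.0834). Ebf1, a B cell factor also made by stromal cells, was the B cell list gene that rose (0.85 ± 0.18, edgeR adjusted p = 0.00413), while DESeq2 called 14 of the list higher, and edgeR also called 14 without arsenic 15 and 2 without control 1. Trbc1, a T cell receptor constant region, stood at 1.89, 1.33, 2.41 and 2.59 CPM on control feed and 5.21, 2.89, 6.002, 3.90 and 3.44 CPM on arsenic (1.06 ± 0.25, edgeR adjusted p = 0.007). Cd8a overlapped (0.33 ± 0.27, edgeR adjusted p = 0.394). The T cell score overlapped between diets, at 0.41 to 1.04 on control feed and 0.91 to 1.998 on arsenic, and so did the B cell score, which was 0.37 to 4.11 on arsenic and -0.36 to 2.103 on control feed. With it as a covariate 1 T cell gene was called higher, and without arsenic 11 and 13 also 1. Single libraries lowered the 14 T cell calls to 3 without control 2, 8 without control 4, 5 or arsenic 12, 7 without arsenic 11 and 5 without arsenic 13.

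Several genes with the largest rises varied in step with these libraries. Slamf6, a lymphocyte receptor, stood at 0.687, 0.174, 0.380 and 0.690 CPM on control feed and 7.06, 2.66, 7.07, 2.22 and 0.876 CPM on arsenic, highest in arsenic 11 and 13 and lowest in 15 (3.02 ± 0.72, edgeR adjusted p = 0.017). Ifi213, an interferon-inducible gene, had the same libraries at its ends (2.90 ± 0.75, edgeR adjusted p = 0.0243), as had Ms4a4b of T cells (1.96 ± 0.33, edgeR adjusted p = 0.000843), Tespa1 of T cell signalling (1.89 ± 0.38, edgeR adjusted p = 0.00255) and Clec7a, a receptor for fungal glucans, at the top (1.97 ± 0.28, edgeR adjusted p = 0.000258). The calls of Slamf6 and Ifi213 held without arsenic 11 and 13 together and were lost without control 4 and arsenic 14 together and in runs without 1 library, with edgeR adjusted p = 0.0515 and 0.0527 without control 2 and control 4 for Slamf6 and edgeR adjusted p = 0.061 to 0.0711 without each of control 1, control 2, control 4 and control 5 for Ifi213. With the B cell score as a covariate the calls of Slamf6, Ifi213 and Tespa1 were lost, and those of Ms4a4b and Clec7a held. Slamf6 and Ifi213 were not called by limma voom either. How much of these rises came with lymphoid tissue in the piece was not tested. Irf4, of plasma and activated lymphocytes, rose (1.36 ± 0.32, edgeR adjusted p = 0.00889), whereas Jchain, of IgA plasma cells, did not pass (0.37 ± 0.16, edgeR adjusted p = 0.117). Of 12 MHC class II genes 2 rose, with a median of 0.88. The number was 6 without arsenic 15, 3 without control 1, and 1 without any other single library, and DESeq2 called 5. H2-Aa stood at 80.3, 107, 50.5 and 134 CPM on control feed and 162, 239, 178, 267 and 71.7 CPM on arsenic (0.98 ± 0.43, edgeR adjusted p = 0.142). Of 22 myeloid genes 2 rose and 3 fell, a share called (22.7%) near the 25.2% of all genes, and 4 rose without arsenic 14. Lyz2, lysozyme of macrophages, rose (0.66 ± 0.11, edgeR adjusted p = 0.000972) and Cd68, of their lysosomes, fell (-0.78 ± 0.16, edgeR adjusted p = 0.00317), while Csf1r, their growth factor receptor, did not pass (0.08 ± 0.12, edgeR adjusted p = 0.669).

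The muscle, connective tissue and endothelial genes that passed had risen. Of 18 smooth muscle genes 5 rose and 0 fell (median 0.33), of 27 fibroblast and matrix genes 10 rose and 0 fell (median 0.25) and of 14 endothelial genes 3 rose. The shares called were 27.8%, 37.0% and 21.4%, against 25.2% of all genes, so the first and last lay near that share. Hspb6, a small heat shock protein of muscle, changed by 0.65 ± 0.13, edgeR adjusted p = 0.00286, Dpt, dermatopontin, by 0.45 ± 0.08, edgeR adjusted p = 0.000911 and Pecam1, of endothelium, by 0.59 ± 0.10, edgeR adjusted p = 0.00106. Summed levels of 4 smooth muscle markers were 1800 to 2540 CPM on control feed and 2150 to 3560 CPM on arsenic, which overlapped, and the part of muscle share in these rises was not tested. The counts hung on single libraries and scaling. Smooth muscle genes that rose numbered 8 with upper-quartile scaling or library totals, and 2 without control 1, 4 or 5, 3 without arsenic 11 or 14, 8 without control 2 and 14 without arsenic 15, fibroblast genes 5 without control 1 and 6 without control 5, and endothelial genes 1 without control 1, control 5, arsenic 11, arsenic 12 or arsenic 14.

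Ribosomal protein genes were slightly higher, and RNA-binding genes moved in both directions. Of 54 cytosolic ribosomal protein genes 35 rose and 0 fell, with a median of 0.24, although processed copies can take their reads. Rps7 stood at 267, 267, 276 and 287 CPM on control feed and 375, 339, 386, 371 and 356 CPM on arsenic, with a clear gap between diets (0.42 ± 0.06, edgeR adjusted p = 0.000189). Without arsenic 11 and 13, 18 of them rose. Cirbp, a cold-inducible RNA-binding protein, stood at 22.9, 14.6, 16.2 and 20.5 CPM on control feed and 53.4, 48.9, 49.1, 43.5 and 40.9 CPM on arsenic. Every arsenic library was well above all controls (1.34 ± 0.13, edgeR adjusted p = 3.05e-05), and Rbm3, its relative, changed by 0.62 ± 0.08, edgeR adjusted p = 0.000111. Of the 22 splicing and cold-inducible genes 7 rose and 5 fell, the latter 2 with upper-quartile scaling or library totals and 2 or 3 without any 1 control, arsenic 12 or arsenic 13. Tra2a, a splicing activator, stood at 90.8, 97.6, 103 and 97.7 CPM on control feed and 54.7, 44.5, 55.7, 65.3 and 57.3 CPM on arsenic and fell (-0.81 ± 0.09, edgeR adjusted p = 3.41e-05), Srsf9 fell (-0.54 ± 0.08, edgeR adjusted p = 0.000289) and Son rose (0.40 ± 0.06, edgeR adjusted p = 0.000323). Xrn1, the cytoplasmic exonuclease that degrades decapped RNA, changed by 0.63 ± 0.06, edgeR adjusted p = 1.02e-05, with 37.8 to 40.3 CPM on control feed and 56.7 to 62.6 CPM on arsenic.

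Single enzymes and transporters of metabolism stood out from lists that otherwise moved little. Hk2, the inducible hexokinase, stood at 558, 618, 515 and 656 CPM on control feed and 277, 203, 247, 173 and 141 CPM on arsenic. No arsenic library held more than 277 CPM, and arsenic 15 had the least (-1.50 ± 0.19, edgeR adjusted p = 0.00107). Mat2a, which makes S-adenosylmethionine, the methyl donor for arsenic methylation, stood at 1044, 1238, 1057 and 1268 CPM on control feed and 690.4, 585, 576, 469.7 and 745 CPM on arsenic and fell (-0.91 ± 0.12, edgeR adjusted p = 0.000486), in a one-carbon list of 22 with 3 risen and 3 fallen. Slc1a4, a carrier of serine and other small neutral amino acids, changed by -0.98 ± 0.15, edgeR adjusted p = 0.0015 and Slc11a2, the iron importer, by -0.52 ± 0.10, edgeR adjusted p = 0.00135. Slc2a5, the fructose transporter, rose (0.78 ± 0.19, edgeR adjusted p = 0.00872). Gch1, the first enzyme of tetrahydrobiopterin synthesis, stood at 50.4, 59.9, 46.1 and 63.7 CPM on control feed and 22.7, 21.5, 23.6, 25.02 and 25.4 CPM on arsenic, without overlap (-1.22 ± 0.09, edgeR adjusted p = 1.89e-06).

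Outside these groups, the rises with the next lowest p-values belonged to Krba1 (0.84 ± 0.08, edgeR adjusted p = 9.31e-06), Pqlc3 (0.69 ± 0.07, edgeR adjusted p = 2.33e-05), Zc3h6 (1.61 ± 0.17, edgeR adjusted p = 2.59e-05), Ptprr, a tyrosine phosphatase of ERK kinases (0.83 ± 0.09, edgeR adjusted p = 2.67e-05), Plpp2, a lipid phosphatase (0.63 ± 0.07, edgeR adjusted p = 3.07e-05), and Trpv3, a warmth-gated cation channel. Trpv3 stood at 2.57, 1.57, 2.91 and 2.07 CPM on control feed and 6.58, 9.30, 10.8, 10.2 and 11.6 CPM on arsenic, with arsenic 11 the lowest of its group and no overlap (2.09 ± 0.20, edgeR adjusted p = 1.46e-05). Rab33a, a small GTPase, rose from at most 0.57 CPM in any control to 1.62 to 2.76 CPM on arsenic (2.62 ± 0.32, edgeR adjusted p = 8.74e-05), and Slc14a1, a urea transporter, from at most 0.57 CPM to 1.52 to 5.26 CPM (2.86 ± 0.43, edgeR adjusted p = 0.000561). Both passed the count filter only through the arsenic libraries, so their calls are no independent support for a rise. Among falls, Adm, the vessel-active peptide adrenomedullin, stood at 19.8, 18.3, 11.3 and 14.3 CPM on control feed and 3.77, 2.71, 4.93, 3.09 and 4.32 CPM on arsenic, the highest arsenic library far below the lowest control (-2.09 ± 0.19, edgeR adjusted p = 1.74e-05). Ccdc71l (-1.10 ± 0.08, edgeR adjusted p = 1.29e-06), Igf2bp2, an RNA-binding protein of growth transcripts (-0.94 ± 0.07, edgeR adjusted p = 1.62e-06), Rhpn2 (-0.62 ± 0.05, edgeR adjusted p = 2.86e-06) and Trim6 (-1.90 ± 0.29, edgeR adjusted p = 0.00109) fell likewise.

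Whether the cecum differed from the other gut regions was tested on all 27 libraries, as the arsenic effect in the cecum minus the mean of the effects in the ileum (4 control and 5 arsenic libraries) and the colon (5 and 4). Of 17763 genes 519 passed (2.92%), 97 above (0.546%) and 422 below (2.38%). With upper-quartile scaling the numbers were 181 and 160, so the balance of directions rests on the scaling. Single libraries moved the count more than that, to 136 without control 1, 208 without control 2, 275 without control 5, 210 without arsenic 13 and 252 without arsenic 14. Bcorl1 changed by -1.64 ± 0.17 in the cecum, 0.90 ± 0.18 in the ileum and -0.82 ± 0.17 in the colon (difference -1.68 ± 0.21, edgeR adjusted p = 0.00044). In the cecum it stood at 35.99, 34.2, 29.4 and 27.96 CPM on control feed and 11.4, 11.5, 9.51, 9.10 and 11.2 CPM on arsenic, a fall in every arsenic library. Ube2h, a ubiquitin-conjugating enzyme, changed by -0.67 ± 0.07 in the cecum, 0.19 ± 0.07 in the ileum and -0.29 ± 0.07 in the colon (-0.62 ± 0.09, edgeR adjusted p = 0.000787). Zc3h15, a zinc finger protein, changed by -0.88 ± 0.07 in the cecum, -0.09 ± 0.07 in the ileum and -0.44 ± 0.07 in the colon (-0.61 ± 0.09, edgeR adjusted p = 0.000787), and Esyt1, a lipid transfer protein of membrane contacts, by -1.01 ± 0.12 in the cecum, 0.32 ± 0.12 in the ileum and -0.30 ± 0.12 in the colon (-1.02 ± 0.15, edgeR adjusted p = 0.000787). Kif2a, a kinesin that takes apart microtubules, changed by -0.78 ± 0.08 in the cecum, -0.01 ± 0.08 in the ileum and -0.21 ± 0.08 in the colon (-0.67 ± 0.10, edgeR adjusted p = 0.00154). Kremen1, a Wnt inhibitor receptor, changed by -0.31 ± 0.09 in the cecum, 0.76 ± 0.09 in the ileum and 0.09 ± 0.09 in the colon (-0.74 ± 0.11, edgeR adjusted p = 0.000787). The clock gene Cry1 differed as well, with -1.44 ± 0.20 in the cecum, -0.07 ± 0.21 in the ileum and -0.61 ± 0.21 in the colon (-1.10 ± 0.25, edgeR adjusted p = 0.0181), though not without control 1 (edgeR adjusted p = 0.0568).

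Genes above the other regions were fewer with TMM scaling. Itpripl2 changed by 1.01 ± 0.13 in the cecum, 0.16 ± 0.13 in the ileum and 0.28 ± 0.13 in the colon (0.79 ± 0.16, edgeR adjusted p = 0.00847), Ptgfr, the prostaglandin F receptor, by 1.70 ± 0.32 in the cecum, -0.71 ± 0.28 in the ileum and 0.55 ± 0.28 in the colon (1.78 ± 0.37, edgeR adjusted p = 0.0119), Zkscan8 by 0.67 ± 0.12 in the cecum, -0.22 ± 0.12 in the ileum and 0.19 ± 0.12 in the colon (0.69 ± 0.15, edgeR adjusted p = 0.0149) and Ranbp2, a nuclear pore protein, by 0.19 ± 0.07 in the cecum, -0.29 ± 0.07 in the ileum and -0.14 ± 0.07 in the colon (0.41 ± 0.09, edgeR adjusted p = 0.0128). Mt1 (-0.06 ± 0.37, edgeR adjusted p = 0.956), Hspa8 (-0.36 ± 0.13, edgeR adjusted p = 0.125) and Dbp (0.23 ± 0.37, edgeR adjusted p = 0.783) did not pass this test. A missed threshold does not show that their effects were alike in the 3 regions.

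**Figure D5:**
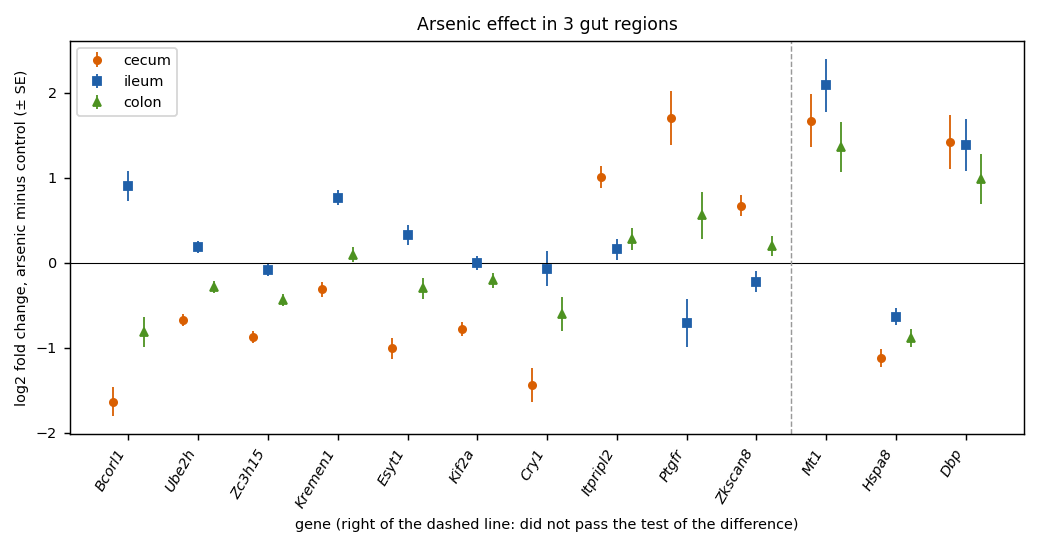
Arsenic effect as log2 change ± SE in the cecum, the ileum and the colon for 10 genes whose effect in the cecum differed from the mean of the other regions and for 3 genes that did not pass that test (Mt1, Hspa8 and Dbp), from 1 fit of the 27 libraries. Bcorl1 lies at -1.64 in the cecum, 0.90 in the ileum and -0.82 in the colon.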

How the data were processed

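Poly(A)-selected RNA was sequenced, per the labels' protocols. The deposited table holds raw counts per gene of each library, and the authors used HISAT2 2.1.0, SAMtools, HTSeq 0.6.0 and DESeq2 1.6.3, per the submitters' processing notes. The genome build, annotation and strand setting behind the counts are not given in the sources used here. Rows without a gene symbol held 0.00312 to 0.00416% of the cecum counts. Sampling noise alone separated no pair of libraries of a diet, with a mean chi-square per gene of 7.79 to 15.9.

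Genes were kept with filterByExpr (minimum count 10, minimum total 15) and tested with the quasi-likelihood test of edgeR 4.0.16 (R 4.3.3) on the 9 cecum libraries, with TMM scaling, robust dispersion and Benjamini-Hochberg adjustment. The SE was taken from the fold change and the F statistic. The region test fitted 6 groups, 27 libraries. List scores are mean log2 CPM with a prior count of 2. The code was tested on simulated counts.

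The 56 gene lists, and the genes described, were chosen with earlier results of these data known. The text names genes from the 12 largest changes and 12 smallest p-values in each direction (mean of at least 1 CPM, groups without overlap), up to 4 called members of each list by p-value, 10 genes of arsenic handling and NRF2 whatever their result, and the 8 smallest p-values in each direction of the region test. Other named genes were chosen after their values were seen. Promoter windows came from RefSeq (GRCm38.p6).

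Alternatives covered RLE, upper-quartile and library-total scaling, DESeq2 1.42.0, limma 3.58.1 (voom), 2 other filters, a test against a 1.2-fold change, 1 fit of all libraries, list scores as covariates and leaving out each library. The runs without control 4 and arsenic 14, without arsenic 11 and 13, and with the small intestine score were added after seeing the data.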

Additional observations from a re-analysis of the deposited data

Results flagged for a closer look

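A library that lay far from the others of its diet was found in 21 of 490 groups of values examined (Dixon's test, which marks about 1 group in 20 by chance). Arsenic 14 stood apart for the export pump gene Abcc2 (7.963 CPM), the lectin Reg3b (321 CPM), the chaperone Hspa13 (38.57 CPM), the growth transcript binder Igf2bp2 (58.61 CPM) and Txnrd3 (8.179 CPM). Control 4 stood apart for Abcc2 (4.244 CPM), Reg3b (9.565 CPM) and the kinase Plk3 (157.5 CPM), and for the scores of goblet cell genes (7.426 log2 CPM) and small intestine markers (5.074 log2 CPM). Arsenic 11 stood apart for Plk3 (57.55 CPM), the cell cycle inhibitor Cdkn1a (629.6 CPM) and Hsph1 (48.04 CPM), and for the clock repressor and output score (5.041 log2 CPM). Control 1 did so for Ephx1 (9.67 CPM), Zbtb16 (2.975 CPM) and the heat shock score (6.392 log2 CPM), control 2 for Hspb1 (39.96 CPM) and control 5 for Hspd1 (364.3 CPM). Arsenic 15 had an outlying metallothionein and zinc transporter score (5.598 log2 CPM) and MHC class II score (3.41 log2 CPM).

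Of 192 genes named in the text, 34 had an arsenic effect in the cecum that differed from the mean of ileum and colon (edgeR, all 27 libraries), and 17 of them passed in every run without 1 cecum library. Over all 17763 genes the share was 2.92%. Some genes were named for their p-value in this same test, so the 34 do not measure how often it is passed. The differences that passed in every such run were, as log2 values, -1.61 for Adm, -1.68 for Bcorl1, -0.86 for Dhcr7, -1.27 for Dusp5, -1.02 for Esyt1, -1.16 for Gch1, -0.92 for Igf2bp2, 0.79 for Itpripl2, -0.67 for Kif2a, -0.74 for Kremen1, 1.78 for Ptgfr, 0.41 for Ranbp2, -1.06 for Ripk3, -0.75 for Txnrd1, -0.62 for Ube2h, -0.61 for Zc3h15 and 0.69 for Zkscan8. The other 17 were not stable to single libraries, with -1.86 for Areg, -0.62 for Bag3, -0.85 for Ccdc71l, -1.10 for Cry1, 1.62 for Cxcl9, -0.53 for Hnf4a, -1.33 for Hspa1a, 3.18 for Ifi213, 1.56 for Ms4a4b, 2.47 for Rab33a, -0.85 for Rhpn2, -0.75 for Slc11a2, 2.23 for Slc14a1, 0.38 for Son, -1.33 for Sprr1a, -0.68 for Srebf2 and -0.76 for Srsf9.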

How the results depend on the processing

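The number of calls moved little with the tool and much with some covariates. RLE factors, both filters, DESeq2, limma voom with and without sample weights, and the small intestine score gave 2806 to 4331 called genes. Library totals gave 2778 higher and 1379 lower, against 1768 and 2165. All 27 libraries in 1 edgeR fit gave 2021 (815 and 1206), a test against a 1.2-fold change 896 (406 and 490), the B cell score 1927 (805 and 1122), the smooth muscle score 2281 (1002 and 1279) and the run without arsenic 11 and 13 gave 2430, of which 976 were higher. The enterocyte score left 81 (32 and 49) and the clock score 0 (0 and 0, with 1310 at an unadjusted p below 0.05). Neither score overlapped between diets, so score and diet shared most of their variation in these fits. Without 1 cecum library 3070 to 4313 genes were called, 1280 to 2044 higher and 1733 to 2269 lower.

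Among genes of the text that passed, a change of sign was seen only with those 2 covariates, and none then passed. With the clock score the log2 change was 0.34 for Arntl, -0.17 for Ciart, -0.076 for Hpgds, 0.20 for Nfil3, -0.20 for Ptgfr, -0.57 for Slc2a5, 0.43 for Slc30a1 and -0.64 for Tef. With the enterocyte score it was -0.26 for Cybb, -0.14 for Dusp2, -0.0083 for Ebf1, -0.45 for Egr3, -0.18 for Hspb1, -0.50 for Ifi213 and -0.028 for Irf4. Arntl, Ciart, Nfil3 and Tef are clock list genes, from which the clock score was made, so their change with that score was built in.

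The diets share no replicate number, so a block could enter only a limma voom fit of all regions, with the library number within a diet as the replicate block. It called 1788 genes (595 higher, 1193 lower), against 1777 (597 and 1180) with no replicate block, at a correlation of 0.0927. Of the 3933 main calls these fits kept 43.9% and 43.7%, and the edgeR fit of all 27 libraries 48.7%. With the block, heat shock falls were 20 (main 21) and EGF receptor list falls 10 (main 10). T cell rises were 1 (main 14), cholesterol synthesis rises 6 (14), goblet falls 1 (7) and ion absorption falls 1 (8). None of these fits called Trpv3, Aqp8, Car4, Jun, Nr1d1, Idi1, Muc2 or Irf7. Deviations of same-numbered libraries from the cecum and another region correlated at -0.108 to 0.248 over 16 pairs, and 9 of them were above 0.1. Of the 16, 11 correlated best with their own number, 7 of 8 pairs with the colon and 4 of 8 with the ileum, a hint of pairing from the data and not from the design. Since 7 pairs were not above 0.1 and the labels name no shared animal, the numbers were not taken as pairing.

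For the region test, 519 genes (97 above, 422 below) became 341 with upper-quartile scaling (181 and 160), while limma voom called 464 (57 above) with no replicate block and 642 with the replicate block. Without 1 cecum library the numbers were 136 to 459, 18 to 100 above and 118 to 369 below. Small list counts moved with single libraries: of 43 list counts of 1 to 3, 32 moved by over 1.5 times in at least 1 run without 1 cecum library. Depth of 16069985 to 18083282 counts limits genes near 1 CPM.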

Other observations

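Few genes of protein degradation passed. Of 31 proteasome genes 4 fell and 0 rose, a share of 12.9% against 25.2% of all genes tested, with a median log2 change of -0.01, and with library totals 3 fell and 3 rose. Psmd4, a ubiquitin receptor of the proteasome, stood at 135, 138, 135 and 146 CPM on control feed and 123, 100.1, 98.8, 113 and 113 CPM on arsenic. The arsenic libraries lay just below the controls without overlap (-0.34 ± 0.07, edgeR adjusted p = 0.00258), and Psma5, of its core ring, changed by -0.26 ± 0.06, edgeR adjusted p = 0.00579. Of 13 genes of the CCT chaperonin and its partner prefoldin, which fold actin and tubulin, 1 rose and 1 fell. Of 28 genes of foreign-compound metabolism and of the aryl hydrocarbon receptor 2 rose and 2 fell, and 5 rose without control 4 and 4 without arsenic 12. Tiparp, a target of that receptor, changed by -0.42 ± 0.09, edgeR adjusted p = 0.00377 and Cyp4f16, a cytochrome P450, by -0.47 ± 0.09, edgeR adjusted p = 0.00272. Of 18 iron and heme genes 1 rose, Fech, the last enzyme of heme synthesis (0.26 ± 0.07, edgeR adjusted p = 0.0141), and 1 fell.

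The 12 transcripts of the mitochondrial genome that were tested had a median of 0.32, and 5 rose and 0 fell, while 0 of the 40 nuclear genes of the same machinery passed. The number that rose was 3 without control 1, 2 or 5. mt-Nd5, a subunit of complex I, stood at 1728, 1589, 1881 and 1819 CPM on control feed and 2380.4, 1919, 2058, 2027 and 2385 CPM on arsenic (0.30 ± 0.08, edgeR adjusted p = 0.0134). Of 14 plasma cell genes 4 rose and 2 fell, and 2 rose without control 1 or control 2. Mzb1, an antibody-folding factor, stood at 3.20, 2.38, 3.29 and 2.07 CPM on control feed and 11.8, 6.18, 7.07, 3.47 and 3.44 CPM on arsenic, with arsenic 11 and 13 the highest and all arsenic libraries above the controls (1.22 ± 0.38, edgeR adjusted p = 0.0385). Single libraries ended that call (edgeR adjusted p = 0.0656 to 0.102 without each of control 1, control 2, control 4, control 5, arsenic 12 and arsenic 13). Of 19 enteric neuron and glia genes 1 rose and 0 fell (5 rose without arsenic 15), and of 11 adipocyte and mesothelium genes 0 passed the edgeR test, with a median of -0.31.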
